A study of Mus musculus with 6 samples.

Results

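Cytochrome P450 genes were examined in the colon of mice that lack the gel-forming mucin Muc2. The rule took the rows of the gene count table that are annotated as protein-coding, whose symbol is Cyp followed by a digit (Cyp51 left out) and whose counts over the 6 libraries sum to at least 50. It found 37 genes among 99 protein-coding Cyp genes and 55849 rows in all. The genes were thus chosen by their summed count, and a high level in either group could carry a gene past it; the difference between the genotypes was not used. Muc2-/- mice, which carry the Muc2 knockout, gave 3 libraries and wild-type C57BL/6 mice gave 3. The labels do not give the strain background of the Muc2-/- mice, how the allele was made, or how many animals a library holds. All mice were 12 weeks old, were untreated, and had the descending colon taken. The titles name crypts but the protocols name dissected tissue as the source of the RNA, and smooth muscle transcripts were present in every library. Nothing in the labels says that the libraries of a group came from separate animals, so a p-value here reflects library-to-library spread, which may be technical.

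P450 enzymes are haem proteins that insert an oxygen atom into a substrate, with electrons passed to them by P450 reductase in the endoplasmic reticulum or by ferredoxin in mitochondria. The lower-numbered families handle foreign compounds and fatty acids, including the conversion of arachidonic acid to epoxides and hydroxy acids. Other families clear retinoic acid or make and break down sterols, bile acids and vitamin D. In the gut, P450 enzymes sit mainly in the surface epithelium, where they meet dietary and microbial compounds.

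All P450 enzymes bind the haem iron through a cysteine, and the stretch around it shows how close the members described here are to each other at that site. This stretch was searched for as the pattern Phe, any 2 residues, Gly, any 3 residues, Cys, any residue, Gly. The search covered the longest protein-coding GENCODE M21 transcript of each gene and found the pattern in 35 of the 37 genes. Cyp20a1 and Cyp2s1 had no match to these letters in that transcript, and their other transcripts were not searched. The 30 coding bases are given 5′ to 3′ with the codon of the haem-binding cysteine in capitals, for the genes that the results below turn on. The first lines are the genes whose libraries did not overlap between genotypes, the later ones some of the most abundant genes and Cyp2d12, which DESeq2 called.
Cyp2j6: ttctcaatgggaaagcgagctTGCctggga
Cyp2j9: ttctcaatgggaaaacgtgctTGTcttgga
Cyp4f40: ttctcagcggggccaaggaacTGCattgga
Cyp26b1: tttggcggtggcgtgcggaccTGCctgggc
Cyp2d22: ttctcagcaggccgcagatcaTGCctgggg
Cyp4x1: ttctccagtggtccaaggaacTGCatcggg
Cyp7b1: tttggactcggaacaagcaaaTGTccaggg
Cyp2c55: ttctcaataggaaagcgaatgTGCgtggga
Cyp2c65: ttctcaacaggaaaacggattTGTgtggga
Cyp2c68: ttctcagcaggaaaacggattTGTgtggga
Cyp2d10: ttctcagcaggccgcagatcaTGCctgggt
Cyp2d12: ttttcagcaggccgcagatcaTGCctgggg
Cyp4f14: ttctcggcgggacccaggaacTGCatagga
Cyp3a13: tttgggagtggaccaaggaacTGCattggc
The 35 stretches comprised 30 distinct sequences. Cyp2c68 shares its stretch with Cyp2c40 and Cyp2c69, Cyp2d10 shares its with Cyp2d34, and Cyp2d22 shares its with Cyp2d9 and Cyp2d26. Likeness along the whole transcript bears on the counts, since reads from near-identical copies can be assigned to the wrong gene. The haem stretch alone does not measure this. Cyp2d34 shared its whole stretch with Cyp2d10, but only 0.128% of the 100-base windows of its transcript with another gene. Of all 100-base windows of its transcript, Cyp2c40 shared 44.1% with another gene, Cyp2c69 36.3%, Cyp2c68 19.8% and Cyp2d10 14.8%, so these values are uncertain. The other members lay at or under 10%, and 20 had no shared window, among these Cyp2j6, Cyp4f40, Cyp26b1 and Cyp2c55.

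The libraries held 16627761 to 17465636 assigned counts in Muc2-/- and 16395432 to 20336459 in wild-type. Levels across libraries are given in CPM, the count of a gene scaled to a common library size after edgeR's TMM scaling. Muc2 itself had 756, 1021 and 942 CPM in Muc2-/- 1, 2 and 3, against 2480, 6977 and 2629 CPM in wild-type 1, 2 and 3, and the groups did not overlap (log2 fold change -2.15, SE 0.47, edgeR adjusted p = 0.103). Mitochondrially encoded transcripts took 1.04 to 3.50% of counts in Muc2-/- and 3.49 to 8.98% in wild-type. The part of the gene that the allele removes is not given in the labels, so this gene-level count is a limited check of them. Markers of some cell types differed as well. Summed over 10 smooth muscle genes, the level was 4760, 4595 and 2630 CPM in Muc2-/- 1, 2 and 3, against 22080, 12920 and 6241 CPM in wild-type 1, 2 and 3, and all 10 were lower in Muc2-/- at an unadjusted p under 0.05. Summed over 8 pan-epithelial genes, it was 22160, 37600 and 23440 CPM in Muc2-/- 1, 2 and 3, against 9817, 15470 and 18730 CPM in wild-type 1, 2 and 3, and 3 of the 8 were higher at an unadjusted p under 0.05. Over 9 surface colonocyte genes, it was 10810, 14400 and 10520 CPM in Muc2-/- 1, 2 and 3, against 8183, 13500 and 11980 CPM in wild-type 1, 2 and 3. These groups overlapped, and at an unadjusted p under 0.05 2 of the 9 genes were lower and 0 higher. Over 7 goblet cell genes other than Muc2, it was 26280, 26030 and 17510 CPM in Muc2-/- 1, 2 and 3, against 2874, 3612 and 17370 CPM in wild-type 1, 2 and 3. In this sum wild-type 3 stood apart from the other wild-type libraries, through Zg16, Fcgbp, Clca1 and Tff3. Spink4 and Spdef were instead lowest in wild-type 3, at 497 and 48.9 CPM. Agr2 averaged 1015 CPM in Muc2-/- and 1024 CPM in wild-type. Of the 7 genes, 1 was higher in Muc2-/- at an unadjusted p under 0.05. Over 6 tuft cell genes, it was 19.1, 18.5 and 17.7 CPM in Muc2-/- 1, 2 and 3, against 69.0, 58.0 and 27.9 CPM in wild-type 1, 2 and 3, and 5 of the 6 were lower at an unadjusted p under 0.05. In bulk tissue, fewer cells of a type and less RNA per cell cannot be told apart.

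The P450 set of this tissue was uneven. By the authors' FPKM (fragments scaled to gene length and library size, the scale used here to compare genes), 13 of the 37 genes averaged 10 or more over the 6 libraries, 12 averaged 1 to 10 and 12 averaged below 1. Cyp2c55, a colonic enzyme that oxidises arachidonic acid in mouse, had the highest mean level at 178 FPKM. It was followed by Cyp4f14, which hydroxylates leukotriene B4 and vitamin E, at 92.5 FPKM, by Cyp2d34 at 69.8 FPKM, and by Cyp3a13, the main Cyp3a gene found here, at 53.9 FPKM. Cyp2c68, Cyp2d10, Cyp4f16, Cyp4f40, Cyp2c65, Cyp2j6, Cyp2d9 and Cyp2s1 came next, with means of 35.0 down to 14.2 FPKM. Neighbours in this order are not separated by their spread: Cyp2c55 alone ranged over libraries from 51.1 to 169 FPKM in Muc2-/- and from 126 to 441 FPKM in wild-type.

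**Figure D1:**
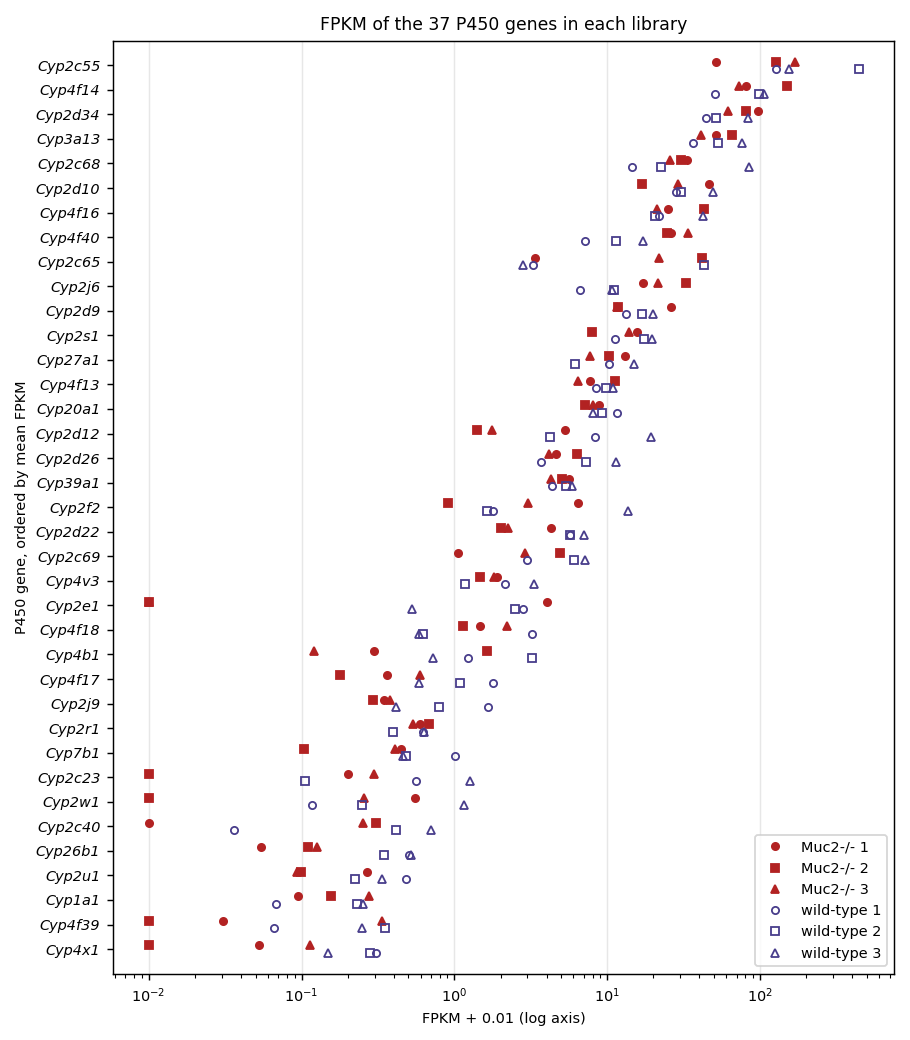
Level of each of the 37 P450 genes (rows, ordered by mean FPKM) in each of the 6 libraries, as FPKM + 0.01 on a log axis, with filled red symbols for Muc2-/- and open blue symbols for wild-type. The genotypes intermingle in most rows, while all red symbols lie to the right for Cyp2j6 and Cyp4f40 and to the left for Cyp26b1, Cyp2d22, Cyp2j9, Cyp4x1 and Cyp7b1.

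The 37 genes together held 540, 685 and 569 FPKM in Muc2-/- 1, 2 and 3, against 436, 884 and 773 FPKM in wild-type 1, 2 and 3 (598 ± 76.8 and 698 ± 233, SD, n = 3 each). The groups overlapped, and the spread was wider in wild-type. Cyp2c55 made up 9.45, 18.6 and 29.6% of that sum in Muc2-/- 1, 2 and 3, against 28.9, 49.9 and 19.9% in wild-type 1, 2 and 3, so wild-type 2 is the library in which a single gene took the largest share. By subfamily, Cyp2c genes summed to 88.8, 204 and 219 FPKM in Muc2-/- 1, 2 and 3, against 147, 513 and 249.7 FPKM in wild-type 1, 2 and 3. Cyp2d genes summed to 184, 119 and 110.4 FPKM in Muc2-/- 1, 2 and 3, against 103, 116 and 189 FPKM in wild-type 1, 2 and 3. Cyp4f genes summed to 141, 228 and 136 FPKM in Muc2-/- 1, 2 and 3, against 92.8, 141 and 178 FPKM in wild-type 1, 2 and 3. These 3 subfamilies overlapped between genotypes. The Cyp2j pair summed to 17.5, 32.8 and 21.8 FPKM in Muc2-/- 1, 2 and 3, against 8.26, 11.9 and 11.2 FPKM in wild-type 1, 2 and 3, with every Muc2-/- library above every wild-type library. In summed CPM, Muc2-/- over wild-type was 2.28 for Cyp2j, 1.19 for Cyp4f, 0.993 for Cyp2d and 0.549 for Cyp2c. Single libraries moved these ratios: without Muc2-/- 2 Cyp4f came to 0.985, without wild-type 2 Cyp2c came to 0.859, and Cyp2d ran from 0.824 without Muc2-/- 1 to 1.22 without wild-type 3.

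**Figure D2:**
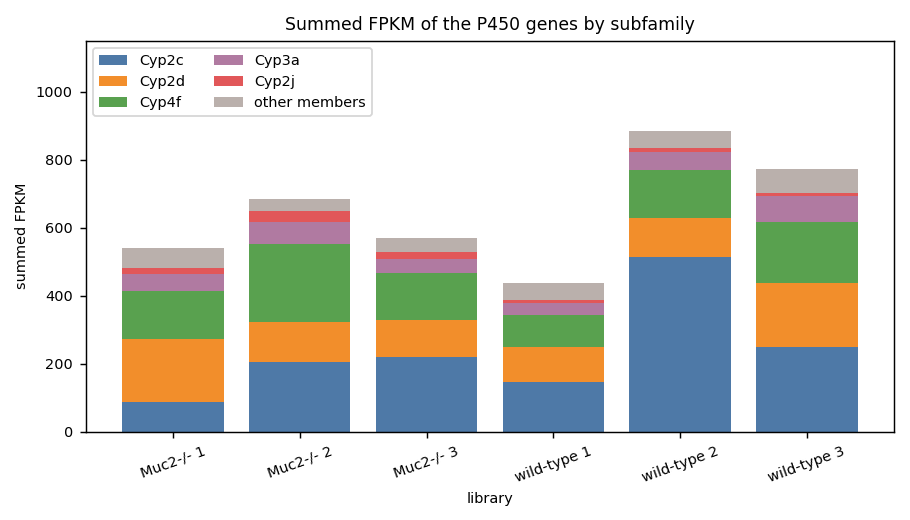
Summed FPKM of the P450 genes in each library, stacked by subfamily. Wild-type 2 has the tallest bar at 884 FPKM, most of it Cyp2c, and wild-type 1 the shortest at 436 FPKM, with the 3 Muc2-/- bars at 540 to 685 FPKM.

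No P450 gene passed the test between Muc2-/- and wild-type. Of the 37 genes, 35 had enough counts to be tested (Cyp2c40 and Cyp2w1 did not), and edgeR's quasi-likelihood test with Benjamini-Hochberg adjustment over 16107 genes called 0 genes in either direction with a threshold of 0.05 on the adjusted p. Among all genes tested it called 0.106% higher and 0.0186% lower, so a count of 0 among 35 is what the background gives. At an unadjusted p under 0.05, 2 of 35 were higher (8.23% of all genes) and 6 of 35 were lower (12.7% of all genes). In 2 genes every Muc2-/- library exceeded every wild-type library (13.3% of all genes) and in 5 the reverse held (15.2% of all genes). These counts lie near the background. DESeq2, run as an alternative, called 2 of 36 higher (3.35% of all genes) and 3 of 36 lower (6.8% of all genes): Cyp2j6 (adjusted p = 0.00341) and Cyp4f40 (0.00994) higher, and Cyp26b1 (0.00511), Cyp2d12 (0.0180) and Cyp2d22 (0.0268) lower. Without wild-type 3, edgeR called 1 P450 gene, Cyp4f40, higher (1.62% of all genes) and 0 lower (5.68% of all genes).

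**Figure D3:**
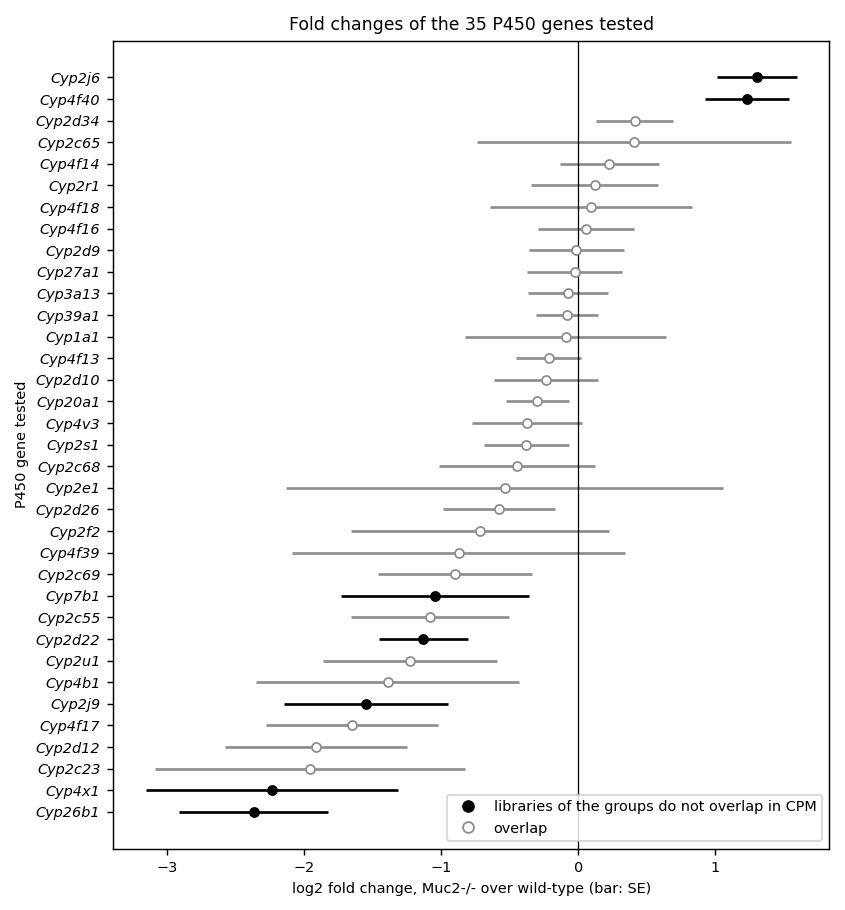
Log2 fold change, Muc2-/- over wild-type, of the 35 P450 genes tested by edgeR, with bars of 1 SE; filled points are genes whose libraries do not overlap between the genotypes. The points run from 1.30 for Cyp2j6 to -2.37 for Cyp26b1, and 27 of the 35 lie left of 0.

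The signs were less even than the calls. The log2 fold change was negative for 27 of the 35 genes (50.9% of all genes were negative) and positive for 8 (49.1% of all genes), with a median of -0.38 over the members and -0.01 over all genes tested. The share of negative signs varied with the level. Among the 10 tested members below 1 FPKM, 9 were negative, where 70% of all genes at that level were. Of the 12 at 1 to 10 FPKM, 11 were negative, against 55.3% of all genes at that level. Of the 13 at 10 FPKM or more, 7 were negative, against 28.6%. Wild-type 3 held the highest CPM of 15 of the 37 genes and Muc2-/- 3 of 2, and without wild-type 3 the members' median was -0.15 and the sign turned for 11 of the 35. The same counts over all genes were not computed, so whether they are particular to P450 genes is not known. Without TMM scaling the median over all genes moves to -0.20.

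Within the Cyp2c subfamily, which oxidises arachidonic and linoleic acid, the 3 most abundant genes spread widely within wild-type. Cyp2c55 and Cyp2c65 did so within Muc2-/- too, and Cyp2c68 did not. Cyp2c55, at chromosome 19 from 38995463 to 39031137 in the count table's coordinates, had 103, 249.5 and 335 CPM in Muc2-/- 1, 2 and 3, against 259, 895 and 301 CPM in wild-type 1, 2 and 3. Wild-type 2 stood far above the other 5 libraries, and the remaining values of the groups overlapped (log2 fold change -1.08, SE 0.58, edgeR adjusted p = 0.325; log2 fold change -0.29 without wild-type 2). Cyp2c65, a gastrointestinal Cyp2c gene, had 6.55, 78.3 and 41.7 CPM in Muc2-/- 1, 2 and 3, against 6.42, 83.7 and 5.29 CPM in wild-type 1, 2 and 3 (log2 fold change 0.41, SE 1.14, edgeR adjusted p = 0.872). Without wild-type 2 the log2 fold change was 2.84 (edgeR adjusted p = 0.256), and without Muc2-/- 2 it was -0.36. Here Muc2-/- 2, Muc2-/- 3 and wild-type 2 were high and the other 3 libraries were low, so the split ran across the genotypes. Cyp2c68 had 57.5, 51.1 and 44.0 CPM in Muc2-/- 1, 2 and 3, against 25.8, 39.3 and 143 CPM in wild-type 1, 2 and 3 (log2 fold change -0.45, SE 0.57, edgeR adjusted p = 0.692). Wild-type 3 was the high library, and without it the log2 fold change was 0.65 in place of -0.45. These 3 genes, all on chromosome 19, were thus high in different sets of libraries. Cyp2c69 ranged from 1.79 to 8.19 CPM in Muc2-/- and from 5.21 to 11.9 CPM in wild-type, while Cyp2c23, an arachidonic acid epoxygenase, and Cyp2c40 stayed below 3 CPM in every library.

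The Cyp2d genes lie together on chromosome 15 and metabolise many amine compounds. Cyp2d34 was the most abundant, with 271, 220.2 and 171 CPM in Muc2-/- 1, 2 and 3, against 127, 146 and 226 CPM in wild-type 1, 2 and 3 (log2 fold change 0.41, SE 0.28, edgeR adjusted p = 0.441). The groups overlapped through wild-type 3. Its share of the subfamily's FPKM was 52.9, 67.8 and 56.1% in Muc2-/- 1, 2 and 3, against 42.9, 44.6 and 43.7% in wild-type 1, 2 and 3, with no overlap. Cyp2d22, often taken as the mouse counterpart of human CYP2D6, lies at chromosome 15 from 82254728 to 82264461 and had 16.7, 7.67 and 8.65 CPM in Muc2-/- 1, 2 and 3, against 22.9, 22.5 and 27.0 CPM in wild-type 1, 2 and 3. Every Muc2-/- library was below every wild-type library, but the difference did not pass edgeR's adjustment (log2 fold change -1.13, SE 0.33, edgeR adjusted p = 0.121, unadjusted p = 0.0087). Cyp2d12 had 20.7, 5.29 and 6.80 CPM in Muc2-/- 1, 2 and 3, against 33.2, 16.6 and 73.9 CPM in wild-type 1, 2 and 3 (log2 fold change -1.91, SE 0.67, edgeR adjusted p = 0.165). Muc2-/- 1 exceeded wild-type 2, so the groups overlapped, and wild-type 3 was far above the rest. Without wild-type 3 the log2 fold change was -1.17, and without Muc2-/- 1 it was -2.76. Cyp2d10 had 76.6, 27.2 and 47.4 CPM in Muc2-/- 1, 2 and 3, against 48.0, 50.9 and 79.2 CPM in wild-type 1, 2 and 3 (log2 fold change -0.24, adjusted p = 0.76 in edgeR). Cyp2d9 had 70.2, 30.8 and 30.7 CPM in Muc2-/- 1, 2 and 3, against 36.2, 45.4 and 51.6 CPM in wild-type 1, 2 and 3 (log2 fold change -0.02, adjusted p = 0.984 in edgeR). In both, the groups overlapped through Muc2-/- 1, while Muc2-/- 2 and 3 lay below every wild-type library. Cyp2d26 overlapped as well, at 7.36 to 11.2 CPM in Muc2-/- and 6.76 to 20.1 CPM in wild-type. A subfamily sum near equality therefore covered members of opposite sign.

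The Cyp2j pair also had fold changes of opposite sign. Cyp2j6, a fatty acid epoxygenase gene expressed in mouse intestine, lies at chromosome 4 from 96404375 to 96441898 and had 62.4, 115 and 77.0 CPM in Muc2-/- 1, 2 and 3, against 24.5, 40.7 and 38.1 CPM in wild-type 1, 2 and 3. Its mean was 84.9 ± 27.2 CPM in Muc2-/- and 34.4 ± 8.66 CPM in wild-type (SD, n = 3 each). The lowest Muc2-/- library lay above the highest wild-type library, giving the most positive fold change of the 35 genes (log2 fold change 1.30, SE 0.29, edgeR adjusted p = 0.103, unadjusted p = 0.00221). Cyp2j9, which hydroxylates arachidonic acid in mouse brain, had 1.13, 0.925 and 1.24 CPM in Muc2-/- 1, 2 and 3, against 5.71, 2.66 and 1.33 CPM in wild-type 1, 2 and 3 (log2 fold change -1.55, SE 0.60, edgeR adjusted p = 0.197). Every Muc2-/- library was below every wild-type library, with wild-type 3 close to Muc2-/- 3. Without wild-type 1 the log2 fold change was -0.86. At these levels Cyp2j6 sets the subfamily sum, with a mean of 16.6 FPKM against 0.640 FPKM for Cyp2j9.

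Of the other family 2 genes, Cyp2s1, an epithelial enzyme found outside the liver, had 77.8, 38.1 and 67.9 CPM in Muc2-/- 1, 2 and 3, against 56.7, 87.2 and 95.0 CPM in wild-type 1, 2 and 3 (log2 fold change -0.38, SE 0.31, edgeR adjusted p = 0.519). Its groups overlapped. Cyp2e1, which oxidises ethanol and acetone, had 147, 0 and 0 counts in Muc2-/- 1, 2 and 3, against 112, 105 and 23 counts in wild-type 1, 2 and 3, which is 8.75, 0 and 0 CPM in Muc2-/- 1, 2 and 3, against 6.20, 5.47 and 1.10 CPM in wild-type 1, 2 and 3. It was thus present in 1 Muc2-/- library and at 0 in the other 2, where a count of 0 allows up to 3 counts, and present in all 3 wild-type libraries (log2 fold change -0.54, SE 1.59, edgeR adjusted p = 0.88). That fold change rests on Muc2-/- 1, without which the Muc2-/- libraries are all at 0; it was 0.07 without Muc2-/- 2, 0.06 without Muc2-/- 3 and -3.91 in limma-voom. Cyp2f2, which activates naphthalene in mouse airway, ranged from 1.78 to 13.0 CPM in Muc2-/- and from 3.34 to 27.3 CPM in wild-type, with a log2 fold change of -0.72 that was 0.99 without wild-type 3. Cyp2r1, a vitamin D hydroxylase, Cyp2u1, a fatty acid hydroxylase, and Cyp2w1 were below 3 CPM in every library.

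Cyp3a13, an intestinal member of the drug-metabolising Cyp3a subfamily, had 154, 191 and 121 CPM in Muc2-/- 1, 2 and 3, against 111, 160 and 219.7 CPM in wild-type 1, 2 and 3 (log2 fold change -0.08, SE 0.29, edgeR adjusted p = 0.908). Its groups overlapped. The Cyp4f genes hydroxylate the end of long-chain fatty acids and of leukotrienes. Cyp4f14 had 196, 353 and 174 CPM in Muc2-/- 1, 2 and 3, against 126, 240.3 and 252 CPM in wild-type 1, 2 and 3 (log2 fold change 0.23, SE 0.36, edgeR adjusted p = 0.76). Cyp4f16 had 77.5, 129 and 64.9 CPM in Muc2-/- 1, 2 and 3, against 69.2, 63.6 and 128 CPM in wild-type 1, 2 and 3 (log2 fold change 0.06, SE 0.35, edgeR adjusted p = 0.947). The groups overlapped in both. For Cyp4f16 the libraries of either genotype spanned about the same range, while for Cyp4f14 the range lay somewhat higher in Muc2-/-. Cyp4f40 was the member that stood apart. It lies at chromosome 17 from 32877874 to 32895888 and had 64.8, 59.6 and 83.4 CPM in Muc2-/- 1, 2 and 3, against 18.3, 28.7 and 41.7 CPM in wild-type 1, 2 and 3. Its mean was 69.3 ± 12.5 CPM in Muc2-/- and 29.5 ± 11.7 CPM in wild-type (SD, n = 3 each). No library overlapped (log2 fold change 1.23, SE 0.31, edgeR adjusted p = 0.103, unadjusted p = 0.00408). Its share of the Cyp4f FPKM was 18.3, 10.7 and 24.6% in Muc2-/- 1, 2 and 3, against 7.67, 8.02 and 9.58% in wild-type 1, 2 and 3. Cyp4f17 pointed the other way, with 1.13, 0.529 and 1.85 CPM in Muc2-/- 1, 2 and 3, against 5.82, 3.49 and 1.81 CPM in wild-type 1, 2 and 3, but Muc2-/- 3 exceeded wild-type 3 (log2 fold change -1.65, SE 0.63, edgeR adjusted p = 0.191). Cyp4f13 was even, at 28.6 to 49.0 CPM in Muc2-/- and 38.5 to 47.7 CPM in wild-type. Cyp4f18, which acts on leukotriene B4 in mouse neutrophils, ranged from 2.05 to 4.08 CPM in Muc2-/- and from 1.05 to 6.15 CPM in wild-type, and Cyp4f39 stayed below 1 CPM.

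**Figure D4:**
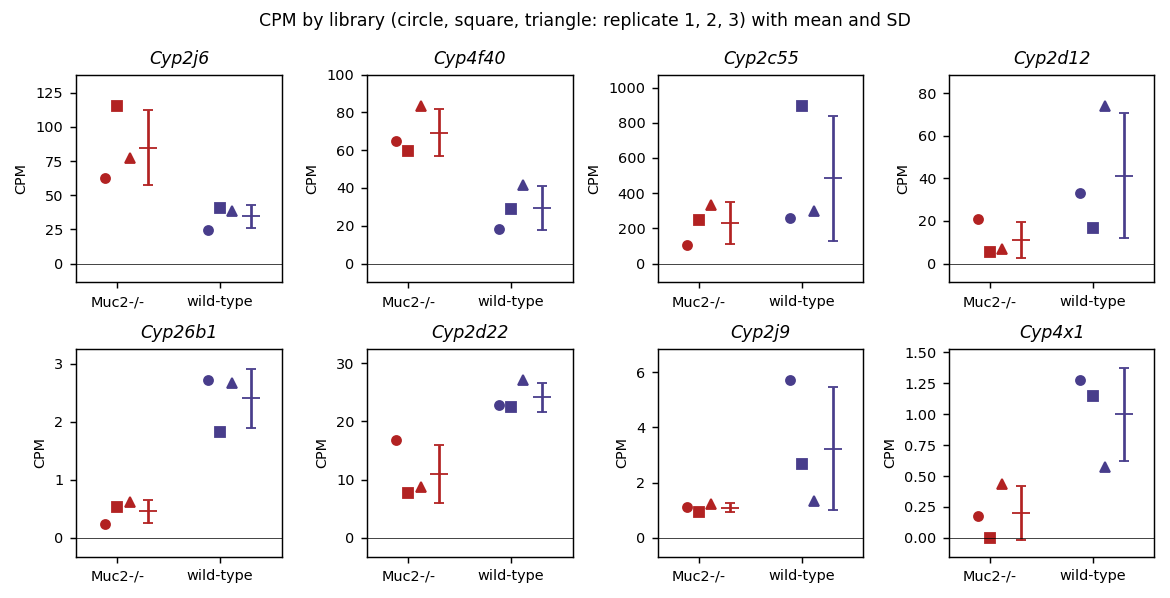
CPM of 8 P450 genes in each library (circle, square and triangle for replicates 1, 2 and 3; Muc2-/- red, wild-type blue), with the mean and SD of the 3 libraries beside them. Cyp2j6 and Cyp4f40 are higher and Cyp26b1, Cyp2d22, Cyp2j9 and Cyp4x1 lower in all 3 Muc2-/- libraries, whereas Cyp2c55 and Cyp2d12 overlap and each has 1 wild-type library far above the rest.

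The remaining family 4 genes act on fatty acids. Cyp4x1 had 3, 0 and 7 counts in Muc2-/- 1, 2 and 3, against 23, 22 and 12 counts in wild-type 1, 2 and 3 (0.179, 0 and 0.433 CPM in Muc2-/- 1, 2 and 3, against 1.27, 1.15 and 0.572 CPM in wild-type 1, 2 and 3). The groups did not overlap, but the counts are few (log2 fold change -2.23, SE 0.92, edgeR adjusted p = 0.219; log2 fold change -3.32 without Muc2-/- 3). Cyp4b1 ranged from 0.247 to 3.57 CPM in Muc2-/- and from 1.57 to 7.30 CPM in wild-type, and Cyp4v3, the counterpart of human CYP4V2, from 5.48 to 7.20 CPM in Muc2-/- and from 4.48 to 12.4 CPM in wild-type. Both overlapped.

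Cyp26b1, which clears retinoic acid, gave the most negative fold change of the 35 genes. It lies at chromosome 6 from 84548396 to 84570890 and had 4, 8 and 10 counts in Muc2-/- 1, 2 and 3, against 49, 35 and 56 counts in wild-type 1, 2 and 3. In CPM these were 0.238, 0.529 and 0.618 CPM in Muc2-/- 1, 2 and 3, against 2.71, 1.82 and 2.67 CPM in wild-type 1, 2 and 3, 5.21-fold lower in Muc2-/- by the group means, with no overlap (log2 fold change -2.37, SE 0.54, edgeR adjusted p = 0.103, unadjusted p = 0.00257). Its level was low throughout, with a mean of 0.266 FPKM. Among the sterol enzymes, Cyp7b1, an oxysterol hydroxylase, had 0.953, 0.198 and 0.865 CPM in Muc2-/- 1, 2 and 3, against 2.22, 1.04 and 0.954 CPM in wild-type 1, 2 and 3 (log2 fold change -1.04, SE 0.69, edgeR adjusted p = 0.421), where the groups touch at Muc2-/- 1 and wild-type 3. Cyp27a1, the mitochondrial sterol hydroxylase, ranged from 16.8 to 28.5 CPM in Muc2-/- and from 13.5 to 32.0 CPM in wild-type. Cyp39a1, another oxysterol hydroxylase, ranged from 12.9 to 17.3 CPM in Muc2-/- and from 13.7 to 17.6 CPM in wild-type. Cyp20a1, whose substrate is not known, ranged from 15.9 to 20.1 CPM in Muc2-/- and from 18.1 to 27.2 CPM in wild-type. Cyp1a1, the classic target of the aryl hydrocarbon receptor, was near the limit of the rule with 51 counts in all, 0.238 to 0.742 CPM in Muc2-/- and 0.166 to 0.668 CPM in wild-type.

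Some of these patterns ran alongside marker genes of particular cells. Cyp2c65 was high in the 3 libraries in which the small intestinal enterocyte genes Fabp2 and Alpi were highest, a pair picked from a list of 9 after their values were seen. Fabp2, the intestinal fatty acid binding protein, had 51.1, 716 and 197 CPM in Muc2-/- 1, 2 and 3, against 102, 579.8 and 46.1 CPM in wild-type 1, 2 and 3. The brush border phosphatase Alpi had 6.19, 32.2 and 17.6 CPM in Muc2-/- 1, 2 and 3, against 2.49, 24.6 and 3.05 CPM in wild-type 1, 2 and 3. The other listed genes did not share the pattern. Apob, which packages dietary fat, had 84.8, 48.6 and 60.9 CPM in Muc2-/- 1, 2 and 3, against 46.9, 64.1 and 86.9 CPM in wild-type 1, 2 and 3, Slc10a2 and Fabp6, which carry bile acids, were highest in wild-type 3, and the defining genes Lct, Sis, Apoc3 and Apoa4 stayed below 1 CPM in every library. The 9 genes summed to 149.8, 807 and 286 CPM in Muc2-/- 1, 2 and 3, against 161, 678 and 154 CPM in wild-type 1, 2 and 3, and the 8 left without Fabp2 to 98.7, 91.0 and 88.8 CPM in Muc2-/- 1, 2 and 3, against 58.3, 98.4 and 108 CPM in wild-type 1, 2 and 3.

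Cyp2e1 was highest in the 3 libraries with the most of the fat cell genes Cfd and Adipoq, likewise picked from a list of 7. Cfd had 29.5, 0.661 and 1.05 CPM in Muc2-/- 1, 2 and 3, against 21.5, 24.1 and 2.43 CPM in wild-type 1, 2 and 3. Adipoq had 4.11, 0 and 0.124 CPM in Muc2-/- 1, 2 and 3, against 1.94, 3.08 and 0.429 CPM in wild-type 1, 2 and 3. Retn and Plin1 were also highest in those 3 libraries. Cidec and Fabp4, the most abundant genes of the list beside Cfd, did not follow: Cidec was highest in Muc2-/- 2, at 25.8 CPM, and Fabp4 had 21.9 CPM there, where Cyp2e1 was at 0. The 7 genes summed to 78.5, 48.9 and 26.0 CPM in Muc2-/- 1, 2 and 3, against 52.7, 70.3 and 15.5 CPM in wild-type 1, 2 and 3. Of 7 hepatocyte genes, Fgb and Serpina1a were at 0, Alb lay between 0.834 and 3.45 CPM and Apoa2 between 0.554 and 5.62 CPM. Ttr, a plasma carrier of thyroid hormone, took most of that list's sum in each library, with 37.6, 18.9 and 19.6 CPM in Muc2-/- 1, 2 and 3, against 26.2, 16.3 and 59.1 CPM in wild-type 1, 2 and 3.

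The genes lower in Muc2-/- without overlap, and Cyp4f17, were also compared within wild-type. Cyp2j9, Cyp4f17, Cyp4x1 and Cyp7b1 were highest there in wild-type 1 and lowest in wild-type 3, and Cyp26b1 and Cyp2d22 were not. Cyp20a1, Cyp2e1 and Cyp4f18, whose groups overlapped, had the same wild-type order, and Cyp4f18 was not lower in Muc2-/- (log2 fold change 0.09). The smooth muscle and tuft cell sums had that order too, as did 7 fibroblast genes, which summed to 839, 594 and 708 CPM in Muc2-/- 1, 2 and 3, against 1403, 888 and 691 CPM in wild-type 1, 2 and 3. In Muc2-/-, none of the 6 P450 genes named first followed the smooth muscle sum. The part of these cells in the results was not tested.

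**Figure D5:**
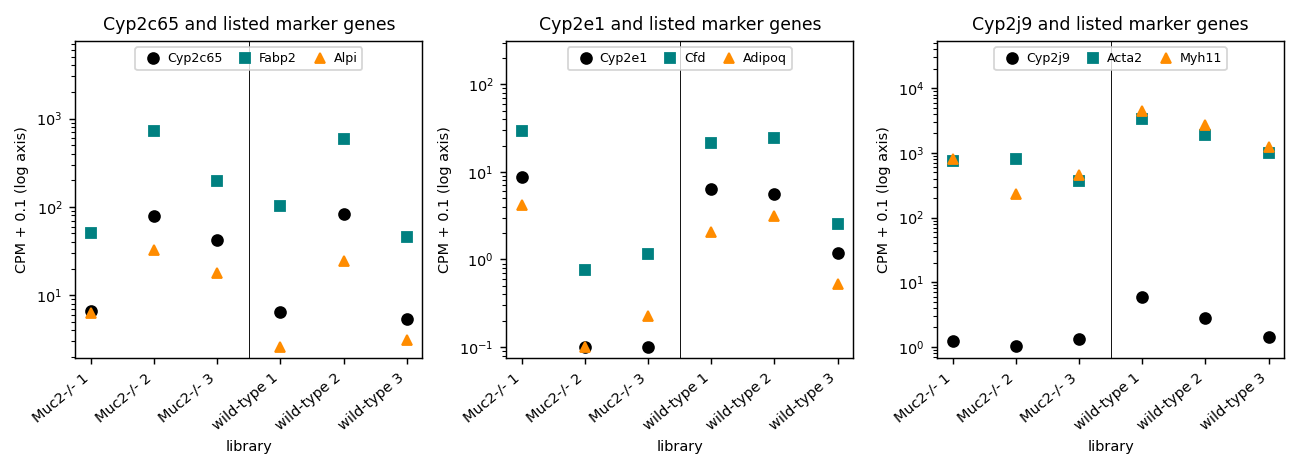
Cyp2c65, Cyp2e1 and Cyp2j9 (black) in each library beside 2 marker genes each, as CPM + 0.1 on a log axis. Cyp2c65 is high where Fabp2 and Alpi are, Cyp2e1 is at 0 in the libraries where Cfd and Adipoq are lowest, and Cyp2j9 runs down from wild-type 1 to wild-type 3 as Acta2 and Myh11 do.

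The partners of the P450 enzymes, given from lists, showed 1 call. Of 10 electron donor genes tested, 0 were called in either direction. At an unadjusted p under 0.05, 1 was higher, Cyb5r4 (8.23% of all genes), and none lower (12.7% of all genes). The reductase gene Por had 140.1, 195 and 134 CPM in Muc2-/- 1, 2 and 3, against 110.4, 174 and 168 CPM in wild-type 1, 2 and 3 (log2 fold change 0.05). Of 21 receptors and regulators, 0 were called higher (0.106% of all genes) and 1 lower (0.0186% of all genes). That gene was Dbp, a clock-controlled transcription factor that drives Cyp genes in mouse liver, with 36.4, 17.9 and 20.9 CPM in Muc2-/- 1, 2 and 3, against 140.1, 108 and 128 CPM in wild-type 1, 2 and 3 (log2 fold change -2.32, SE 0.29, edgeR adjusted p = 0.0456). Over 19 alternative settings its log2 fold change ran from -2.68 to -2.04 and its adjusted p from 9.61e-10 to 0.213. It was called in 11 of them and lost in 8, among these the fits without Muc2-/- 2 (edgeR adjusted p = 0.0806), Muc2-/- 3 (0.213), wild-type 1 (0.209) or wild-type 2 (0.154). The hours at which the mice were sampled are not given in the labels. At an unadjusted p under 0.05, the related factors Tef (log2 fold change -0.69) and Hlf (-2.37) and the clock repressors Nr1d1 (-1.41) and Nr1d2 (-0.64) were lower too, and the bile acid receptor Nr1h4 was higher (0.98), none of them passing the adjustment. With Dbp, 5 of the 21 were lower at that threshold (12.7% of all genes) and 1 was higher (8.23% of all genes). The other receptors did not pass at an unadjusted p under 0.05. Among these, Ahr, the aryl hydrocarbon receptor, had a log2 fold change of -0.15 and Nr1i2, the pregnane X receptor, 0.26. It was 0.46 for Pparg, a fatty acid receptor, and -0.14 for Hnf4a, an epithelial regulator. Nr1i3, the constitutive androstane receptor, was scarce, with 58 counts in all and a log2 fold change of 0.50 (SE 0.89).

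Haem supply gave no call either. Of 8 haem synthesis genes, 0 were called in either direction. Alas1, the rate-limiting enzyme, had 212, 315 and 275 CPM in Muc2-/- 1, 2 and 3, against 76.1, 208 and 133 CPM in wild-type 1, 2 and 3 (log2 fold change 0.94, SE 0.36, edgeR adjusted p = 0.195). It was the 1 gene of the 8 higher at an unadjusted p under 0.05 (8.23% of all genes). Of 4 haem breakdown genes, 0 were called in either direction (0.106% of all genes higher and 0.0186% lower). Hmox1 was the 1 gene of the 4 higher at an unadjusted p under 0.05 (8.23% of all genes), and 0 were lower (12.7% of all genes). Hmox1, haem oxygenase, was the scarcest of the 4. It had 7.50, 6.28 and 10.6 CPM in Muc2-/- 1, 2 and 3, against 5.04, 4.17 and 4.24 CPM in wild-type 1, 2 and 3 (log2 fold change 0.86, SE 0.32, edgeR adjusted p = 0.189). The log2 fold change was 0.07 for Hmox2, 0.28 for Blvrb and 0.45 for Blvra. Of 9 epoxide and eicosanoid genes tested, 0 were called, with 1 higher (8.23% of all genes) and 3 lower (12.7% of all genes) at an unadjusted p under 0.05. Ephx1, microsomal epoxide hydrolase, had 28.9, 13.7 and 22.4 CPM in Muc2-/- 1, 2 and 3, against 82.6, 49.3 and 33.2 CPM in wild-type 1, 2 and 3 (log2 fold change -1.34, edgeR adjusted p = 0.121). Ptgis, the prostacyclin synthase, is a P450 enzyme whose symbol the rule does not take. It had 6.01, 3.90 and 3.52 CPM in Muc2-/- 1, 2 and 3, against 37.0, 17.0 and 9.68 CPM in wild-type 1, 2 and 3 (log2 fold change -2.24, edgeR adjusted p = 0.103). Within each genotype its libraries had the order of the smooth muscle sum, and the part of smooth muscle in this was not tested. Tbxas1, thromboxane synthase, is another such enzyme and had 2.98, 0.925 and 3.52 CPM in Muc2-/- 1, 2 and 3, against 0.775, 0.469 and 1.24 CPM in wild-type 1, 2 and 3 (log2 fold change 1.57, edgeR adjusted p = 0.22).

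The other 62 protein-coding Cyp genes fell below a summed count of 50. Just inside the limit lay Cyp1a1 with 51 counts and Cyp4f39 with 52, and just outside Cyp46a1 with 44 and Cyp2t4 with 43. No count was recorded for 38 of the 62, among them Cyp3a11, Cyp1a2, Cyp4a14 and Cyp2c29, which are abundant in mouse liver, Cyp7a1, the rate-limiting enzyme of bile acid synthesis, Cyp24a1, which breaks down vitamin D, and the steroid hormone enzymes Cyp17a1 and Cyp19a1. Of those with some counts, Cyp1b1 had 24 in all, Cyp11a1, the first enzyme of steroid synthesis, 7, the vitamin D activating Cyp27b1 7, and Cyp26a1, the close relative of Cyp26b1, 4.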

How the data were processed

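Poly-A RNA from descending colon was sequenced as paired ends, per the labels' protocols. The submitters' processing notes list the build mm10 and, with no roles, featureCounts 1.5.0-p3, HISAT2 2.0.5, DESeq2 1.20.0 and StringTie 1.3.3b. Of the strand setting nothing is said there. The deposited tables hold the authors' raw counts per gene and the authors' FPKM, which equal counts over gene length and library total after a size factor per library. Coordinates are those of the count table. For all 37 members the gene widths equal those of GENCODE M21, which is on mm10, and the positions do not, so the positions are of another assembly than the one named; sequences come from the GENCODE M21 transcripts.

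Counts were fitted in edgeR 4.0.16 (R 4.3.3) with filterByExpr (its defaults, a minimum count of 10 and total of 15), TMM factors, genotype as the only term and Benjamini-Hochberg adjustment over all 16107 genes kept. An adjusted p under 0.05 was a call. SE is the log2 fold change over the square root of the F statistic. The pipeline was tested on simulated data. Replicates differed by more than sampling noise, with a chi-square per degree of freedom of 25 or more. DESeq2 1.42.0 and limma 3.58.1 gave alternatives. The members and gene lists were chosen with earlier results of these data known. Genes given in every library were the 12 with the highest mean FPKM and those whose groups did not overlap. Cyp2d12, Cyp4f17, Cyp2e1, Hmox1 and the shares within a subfamily were chosen after their values were seen.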

Additional observations from a re-analysis of the deposited data

How the results depend on the processing

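No P450 gene was called in opposite directions by any of the alternatives run. P450 calls depended on the method: edgeR gave 0 higher and 0 lower, whereas without a filter on low counts it gave 2 higher and 2 lower and DESeq2 gave 2 and 3; leaving out 1 library at a time gave 0 to 1 higher and 0 lower, the 1 being Cyp4f40 without wild-type 3. Over all genes, 17 higher and 3 lower became 384 and 815 without the filter, 619 and 1256 in DESeq2, 7 and 1 without composition factors, 3 and 0 in limma on log2(FPKM + 1), 4 and 0 on log2(FPKM + 0.1), 37 and 9 on log2(FPKM + 1) with at least 1 FPKM in 3 libraries, 1 and 0 with wild-type 1 and Muc2-/- 2 both left out, and 0 and 0 at an adjusted p under 0.01. RLE factors gave 5 lower and limma-voom 11 higher. Leaving out 1 library at a time gave 0 to 272 higher and 0 to 954 lower, the highest counts being those without wild-type 3; the cause was not tested.

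The members' median log2 fold change of -0.38 was -0.54 without composition factors, -0.20 on log2(FPKM + 1), -0.18 with the FPKM filter, -0.54 with both libraries left out and -0.57 to -0.15 with 1 left out. With both libraries left out the ratio of summed CPM was 1.71 for Cyp2j and 0.859 for Cyp4f; with 1 left out it was 1.88 to 2.58 for Cyp2j, 0.985 to 1.37 for Cyp4f, 0.824 to 1.22 for Cyp2d and 0.439 to 0.859 for Cyp2c. With 1 library left out, the sign turned for 15 of the 35 genes tested, none of them called, in 11 without wild-type 3, 8 without Muc2-/- 2, and 1 to 6 without each other library. It turned for Cyp4f16, Cyp4f18 and Cyp2r1 without composition factors, for Cyp4f16 with upper-quartile factors, and for Cyp27a1 in limma-voom, the 3 FPKM fits and the fit with a block. The call of Dbp was also lost without composition factors (adjusted p = 0.0691), on log2(FPKM + 1) (0.107), on log2(FPKM + 0.1) (0.0744) and with both libraries left out (0.161).

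The labels state no pairing by replicate number, and the correlations between libraries do not settle whether there was one. Same-numbered libraries correlated by 0.0937, 0.281 and 0.0606 in their deviations from the group means. Muc2-/- 1 and 2 correlated best with the wild-type library of the same number, and Muc2-/- 3 with wild-type 1 (0.0636). A fit with the replicate number as a block gave 2 P450 genes higher (Cyp2j6 and Cyp4f40) and 0 lower, and 225 higher and 448 lower over all genes. Depth limits the scarce genes: Cyp4x1 had 67 counts over the 6 libraries, Cyp7b1 113 and Cyp26b1 162.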
